A study of Homo sapiens with 14 samples.

Results

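The 10 histone deacetylase genes HDAC1 to HDAC9 and HDAC11 were followed across 7 treatment groups of MM1S, an established line of human multiple myeloma cells. They were taken by symbol: every probe set annotated with only the symbol of such a gene entered, which gave 24 probe sets for 10 of the 19775 genes named on the array. The genes were chosen by family name, but around HDAC9, which was selected on its measured low level with salmeterol alone against untreated cells, so its differences from the untreated arrays and from the salmeterol-alone arrays are given as descriptions without a test. RNA was profiled on 14 Affymetrix arrays, 2 biological replicates in each group, with 6 h of exposure in the treated groups. The groups were cells left untreated and cells given 1 nM salmeterol, 12.5 nM CGS-21680, 25 nM dexamethasone (low dexamethasone), 2 µM dexamethasone (high dexamethasone), salmeterol with low dexamethasone at those doses, and CGS-21680 with low dexamethasone at those doses. Salmeterol activates beta-2 adrenergic receptors, CGS-21680 activates adenosine 2A receptors, and dexamethasone is a synthetic glucocorticoid. All arrays came from this single line, and a vehicle for the untreated cells is not given in the sources used here.

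Both receptors couple to adenylyl cyclase and raise cyclic AMP, while dexamethasone acts through the glucocorticoid receptor, a transcription factor. Histone deacetylases remove acetyl groups from lysines of histones and of other proteins. HDAC1, HDAC2, HDAC3 and HDAC8 form class I. HDAC1 and HDAC2 are the catalytic subunits of the Sin3, NuRD and CoREST corepressor complexes, and HDAC3 is that of the NCoR and SMRT complexes. HDAC4, HDAC5, HDAC7 and HDAC9 form class IIa, have weak catalytic activity of their own, bind MEF2 transcription factors and are moved out of the nucleus when kinases phosphorylate them. HDAC6 belongs to class IIb and deacetylates tubulin in the cytoplasm, and HDAC11 is the only class IV member. Deacetylase inhibitors are used against multiple myeloma.

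Replicates correlated across genes at 0.987 to 0.992, with the widest spread between replicates in the high dexamethasone pair. All 8 of the plasma cell and myeloma markers looked up, SDC1, TNFRSF17, IRF4 and XBP1 among them, reached a log2 level of 4 on at least 1 array. Of the 3 B cell, 4 T cell, 3 monocyte and 4 epithelial markers with a named probe set, 0 reached it. The fibroblast list had COL1A1 above it, with 1 of the list's 20 probe sets, and the erythroid list had HBB, with 3 of 7 probe sets. All levels are log2 values of the deposited array intensity, whose floor is 2.29. A gene was tested if a probe set reached 4 on 2 arrays, and the probe set with the highest mean stood for it. This left 9301 genes.

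Start-site windows are shown for HDAC9, whose level differed most between the groups, and for HDAC1 and HDAC2, which were lower on the arrays with low dexamethasone. RefSeq's table for GRCh38.p14 gives 300 bases around a start site, 250 of them before it. Of the 10 deacetylase genes, 9 had windows in it, 19 windows in all. HDAC9 had 5 windows and HDAC4 had 5. In the windows printed here, 5′ to 3′ on the gene's strand, capitals mark GGGCGG (or CCGCCC, the same motif on the other strand) and a loose form of the MEF2 factors' motif, CTA and TAG with 4 bases of any kind between them.
HDAC9 first start site, chr7:18086575-18086874, plus strand: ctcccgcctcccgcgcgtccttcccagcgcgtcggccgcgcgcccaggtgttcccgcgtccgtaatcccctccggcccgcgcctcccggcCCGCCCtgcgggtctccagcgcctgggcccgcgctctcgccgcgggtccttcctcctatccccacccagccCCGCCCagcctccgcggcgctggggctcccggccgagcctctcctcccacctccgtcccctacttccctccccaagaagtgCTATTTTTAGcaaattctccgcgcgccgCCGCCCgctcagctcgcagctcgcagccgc
HDAC9 downstream start site, chr7:18495460-18495759, plus strand: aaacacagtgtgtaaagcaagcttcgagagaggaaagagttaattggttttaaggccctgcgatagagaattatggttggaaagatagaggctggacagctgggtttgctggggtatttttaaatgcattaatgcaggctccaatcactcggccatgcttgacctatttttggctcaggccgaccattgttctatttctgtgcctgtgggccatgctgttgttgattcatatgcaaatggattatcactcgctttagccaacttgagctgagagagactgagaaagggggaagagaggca
HDAC1, chr1:32291833-32292132, plus strand: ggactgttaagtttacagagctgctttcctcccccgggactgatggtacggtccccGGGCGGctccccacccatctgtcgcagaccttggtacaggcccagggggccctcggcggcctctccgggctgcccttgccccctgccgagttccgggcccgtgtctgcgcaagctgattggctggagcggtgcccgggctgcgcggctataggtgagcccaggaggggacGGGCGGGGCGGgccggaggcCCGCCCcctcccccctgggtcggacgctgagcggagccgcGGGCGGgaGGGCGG
HDAC2, chr6:113971099-113971398, minus strand: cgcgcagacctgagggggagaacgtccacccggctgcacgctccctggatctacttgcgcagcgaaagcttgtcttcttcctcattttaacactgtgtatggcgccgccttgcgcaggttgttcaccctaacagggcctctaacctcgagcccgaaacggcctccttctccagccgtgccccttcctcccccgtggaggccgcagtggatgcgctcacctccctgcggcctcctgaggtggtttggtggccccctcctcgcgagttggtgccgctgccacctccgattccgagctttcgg

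The first HDAC9 window held CTATTTTTAG, a match to this loose MEF2 form that began 8 bases before the start site. The loose form was in 2.73% of the 35116 windows of this length in the table and in no other window of a deacetylase gene. The stricter MEF2 form, with only A or T at the 4 central bases, which this match also meets, was searched after the match had been seen and was in 0.572% of all windows. The same HDAC9 window held 3 GGGCGG matches and had a GC content of 75%. The downstream HDAC9 window, with a GC content of 45.3%, held no match to any of the 6 motifs searched, nor did the other 3 HDAC9 windows. The HDAC1 window held 6 GGGCGG matches, some of them overlapping, and the HDAC2 window held no match to any motif. GGGCGG was in 8 of the 19 windows, from 6 genes, against 45% of all windows. The full cyclic AMP response element TGACGTCA was in 0 of the 19 windows and in 1.85% of all. Its shorter form TGACG, searched on both strands like the others, was in 1 HDAC6 window and in 24.6% of all. The glucocorticoid response element, AGAACA and TGTTCT with 3 bases of any kind between them, was in 0 of the 19 windows and in 0.00285% of all, and CACGTG was in 1 HDAC4 window and in 7.26% of all. These are matches of letters within these windows. Which HDAC9 start site MM1S cells use was not measured by the arrays.

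As a description, HDAC9 RNA was lower on every array with an agonist than on every array without one. The untreated and salmeterol-alone arrays that singled the gene out are among them. The share of all genes split in this way is not given here. The levels on the untreated arrays were 7.75 and 7.91, with low dexamethasone 7.97 and 8.08, and with high dexamethasone 7.70 and 7.80. Salmeterol alone gave 4.80 and 4.38, and salmeterol with low dexamethasone gave 3.98 and 4.62. CGS-21680 alone gave 5.21 and 6.01, and CGS-21680 with low dexamethasone gave 5.02 and 6.09. The 8 arrays with an agonist ran from 3.98 to 6.09, with a median of 4.91, and the 6 arrays without one ran from 7.70 to 8.08, with a median of 7.86. A gap of 1.61 lay between the sets, and no array fell inside it. In bulk RNA, fewer cells with the transcript and less transcript per cell cannot be told apart.

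**Figure D1:**
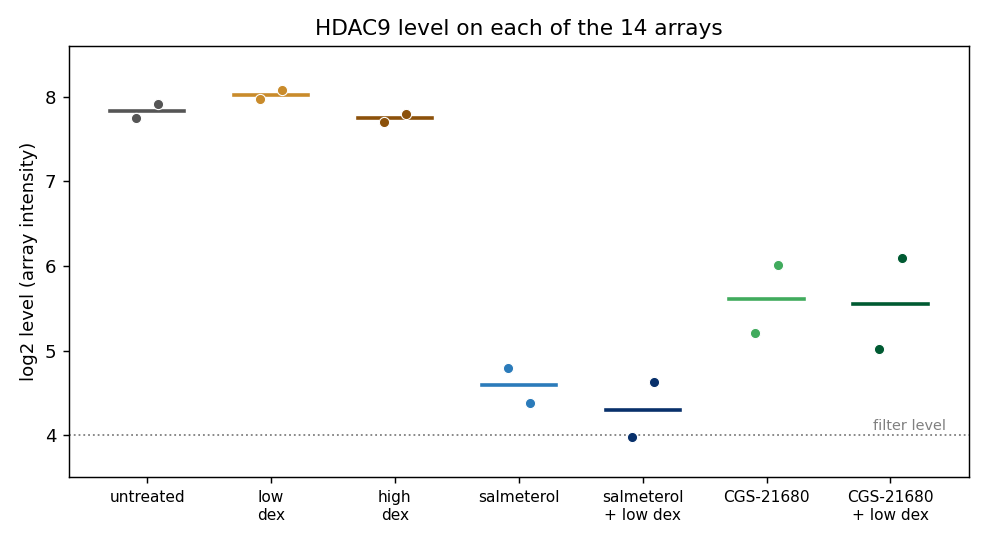
Log2 level of HDAC9 on each of the 14 arrays (points, 2 per group) with the group mean (line); the dotted line is the level of 4 used in the filter. The 8 arrays with salmeterol or CGS-21680 lie between 3.98 and 6.09, all below the 6 arrays without an agonist, which lie between 7.70 and 8.08.

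By description, HDAC9 differed by -3.24 in log2 between the salmeterol and the untreated arrays (means 4.59 and 7.83), a 9.45-fold lower level. On the scale of log2 of value + 16, which shrinks differences of low levels, it was -2.60. Among the 9301 genes, 2 had a lower value in that comparison. CGS-21680 alone gave a mean of 5.61, a difference of -2.22 from untreated cells, and no gene had a lower value. The combinations differed from untreated cells by -3.53 with salmeterol and by -2.28 with CGS-21680. Low dexamethasone differed from untreated cells by 0.19 and high dexamethasone by -0.08, each smaller than its standard error of 0.37. That error is pooled over all groups, whose replicate spread was unequal. The SD of the HDAC9 replicates was 0.12 in untreated cells, 0.08 with low dexamethasone and 0.07 with high dexamethasone. In the groups with an agonist it ran from 0.29 to 0.76. The low dexamethasone arrays, at 7.97 and 8.08, lay above the untreated arrays, at 7.75 and 7.91. The high dexamethasone arrays overlapped the untreated arrays.

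The comparisons with dexamethasone-treated cells rest on means of arrays that did not single HDAC9 out, and there the gene was tested. Its error was pooled over all 14 arrays, the untreated and salmeterol-alone arrays among them. The gene was also chosen for its low level with salmeterol, so these p-values are not an independent test of an agonist's effect. With salmeterol beside low dexamethasone, HDAC9 fell by 3.72 ± 0.37 in log2 (SE; 95% interval -4.55 to -2.89) against low dexamethasone alone, a 13.2-fold difference (limma, adjusted p = 0.000206). With log2 of value + 16 this difference was -2.94 and stayed called. With CGS-21680 beside low dexamethasone it fell by 2.47 ± 0.37 (95% interval -3.30 to -1.64), a 5.54-fold difference (limma, adjusted p = 0.00832). The error of 0.37 is again the pooled one. The SD of the HDAC9 replicates was 0.76 in this combination and 0.08 with low dexamethasone alone. In each of these comparisons 1 of the 9301 genes had a lower value than HDAC9. Against high dexamethasone, HDAC9 differed by -3.45 in the salmeterol combination (mean 4.30 against 7.75, limma, adjusted p = 0.000343) and by -2.20 in the CGS-21680 combination (mean 5.55, limma, adjusted p = 0.0154). Both arrays of each combination lay below both arrays of either dexamethasone group. The share of all genes apart in this way is not given here. With salmeterol beside low dexamethasone, 3 of the 10 deacetylase genes lay apart as lower and 1 as higher, and only HDAC9 was called.

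The CGS-21680 result depended more on the arrays fitted than the salmeterol result. Without low dexamethasone replicate 1, the adjusted p of the CGS-21680 combination against low dexamethasone was 0.0601. Without replicate 2 it was 0.0623, and with only the arrays of both groups in the fit it was 0.222, the highest over all settings (lowest 0.00211). For the salmeterol combination, HDAC9 stayed called in every setting, at adjusted p of at most 0.0313. Against high dexamethasone the CGS-21680 combination lost its call without high dexamethasone replicate 2 (adjusted p = 0.0952) and without CGS-21680 with low dexamethasone replicate 1 (adjusted p = 0.0593), with values of up to 0.343 over all settings.

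Ordered by group mean, HDAC9 was 4.30 in the salmeterol combination, 4.59 with salmeterol, 5.55 in the CGS-21680 combination, 5.61 with CGS-21680, 7.75 with high dexamethasone, 7.83 in untreated cells and 8.02 with low dexamethasone. The arrays of neighbouring groups overlapped within the salmeterol pair, within the CGS-21680 pair, and between high dexamethasone and untreated cells. They did not overlap between the salmeterol groups and the CGS-21680 groups, between the CGS-21680 groups and high dexamethasone, or between untreated cells and low dexamethasone. The doses of the agonists differ, 1 nM and 12.5 nM, so their values stand side by side. HDAC9 was 1.25 ± 0.37 higher in the CGS-21680 combination than in the salmeterol combination (95% interval 0.42 to 2.08), which missed the threshold (limma, adjusted p = 0.196). Without dexamethasone, the CGS-21680 mean was 1.02 above the salmeterol mean, as a description.

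Adding low dexamethasone to an agonist gave HDAC9 differences whose intervals include 0. With CGS-21680 the difference was -0.06 (95% interval -0.89 to 0.77; limma, adjusted p = 0.97), and with salmeterol it was -0.29 (95% interval -1.11 to 0.54), as a description. High against low dexamethasone differed by -0.27 (95% interval -1.10 to 0.56; limma, adjusted p = 1). That interval rests on the pooled error. The high dexamethasone arrays, at 7.70 and 7.80, lay below the low dexamethasone arrays, at 7.97 and 8.08. The interaction of an agonist with low dexamethasone means the agonist's difference beside dexamethasone minus its difference alone. It was -0.48 ± 0.52 for salmeterol and -0.25 ± 0.52 for CGS-21680, again as descriptions.

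The HDAC9 values rest on a single probe set, 205659_at. The other 4 HDAC9 probe sets never reached 4: 1552758_at and 234393_at were at the floor on all 14 arrays, 1552760_at was at it on 12, and 230968_at ran from 2.30 to 3.20. The probe sets that stayed low give no second measurement of the pattern. Over all deacetylase genes, 12 of the 24 probe sets passed the filter. HDAC8 had 3 that passed and each of the other 9 genes had 1. The deposited table also holds exact ties: HDAC5 had the same value on 7 arrays, HDAC11 on 9 and HDAC2 on 3. The HDAC2 tie included both low dexamethasone arrays, which left that pair an SD of 0.

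**Figure D2:**
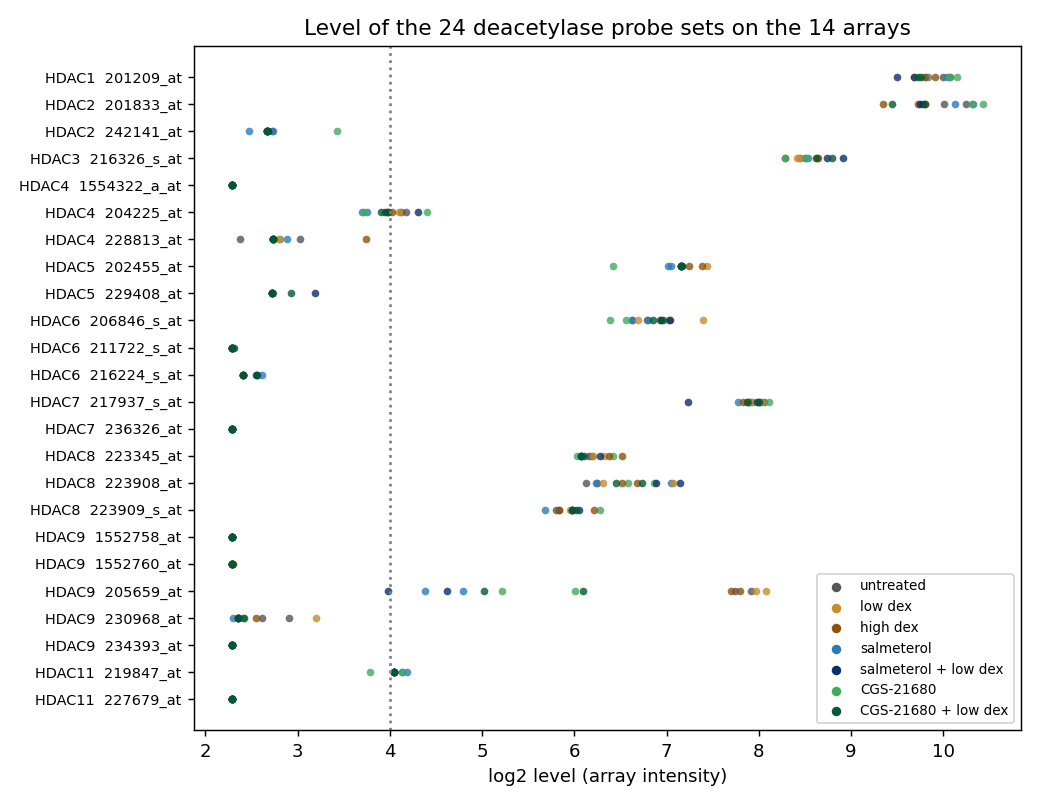
Log2 level of all 24 deacetylase probe sets on the 14 arrays (points coloured by group); the dotted line is the level of 4 used in the filter. The HDAC9 probe set 205659_at spans 3.98 to 8.08, while 12 probe sets, the other 4 of HDAC9 among them, stay below 4 on every array.

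The other class IIa genes did not share the HDAC9 pattern at a size the test could call. HDAC7, the class IIa member known for repressing MEF2 targets in lymphocytes, ran from 7.24 to 8.11 with a median of 7.92. Its lowest array was salmeterol with low dexamethasone replicate 2, at 7.24, while replicate 1 of that group was at 7.98, within the range of the other groups. Against low dexamethasone the salmeterol combination differed by -0.37 ± 0.20 (limma, adjusted p = 0.284). Without replicate 1 of the combination it was -0.74 and called, and without replicate 2 it was close to 0. HDAC5 ran from 6.42 to 7.43. Its lowest array was CGS-21680 replicate 1, at 6.42, while replicate 2 of that group had 7.15. HDAC5 was called in 0 comparisons of the main model. Its largest differences were -0.37 ± 0.20 for CGS-21680 against untreated cells (limma, adjusted p = 0.737) and 0.37 ± 0.20 for low dexamethasone added to CGS-21680 (adjusted p = 0.291). Both use the CGS-21680 arrays.

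HDAC4 lay near the filter level, from 3.70 to 4.41, and reached 4 on 6 of the 14 arrays. Its salmeterol arrays, at 3.75 and 3.70, were below the untreated arrays, at 4.12 and 4.18, and the difference was -0.42 ± 0.20 (limma, adjusted p = 0.27). On the salmeterol with low dexamethasone arrays it was 3.95 and 4.31. At such levels GCRMA values are compressed towards the floor, so a change of HDAC4 could be larger in the cells than on the array. Over the 7 group means, HDAC9 spanned 3.72 in log2, and the 9 other genes spanned from 0.20 (HDAC11) to 0.83 (HDAC2).

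**Figure D3:**
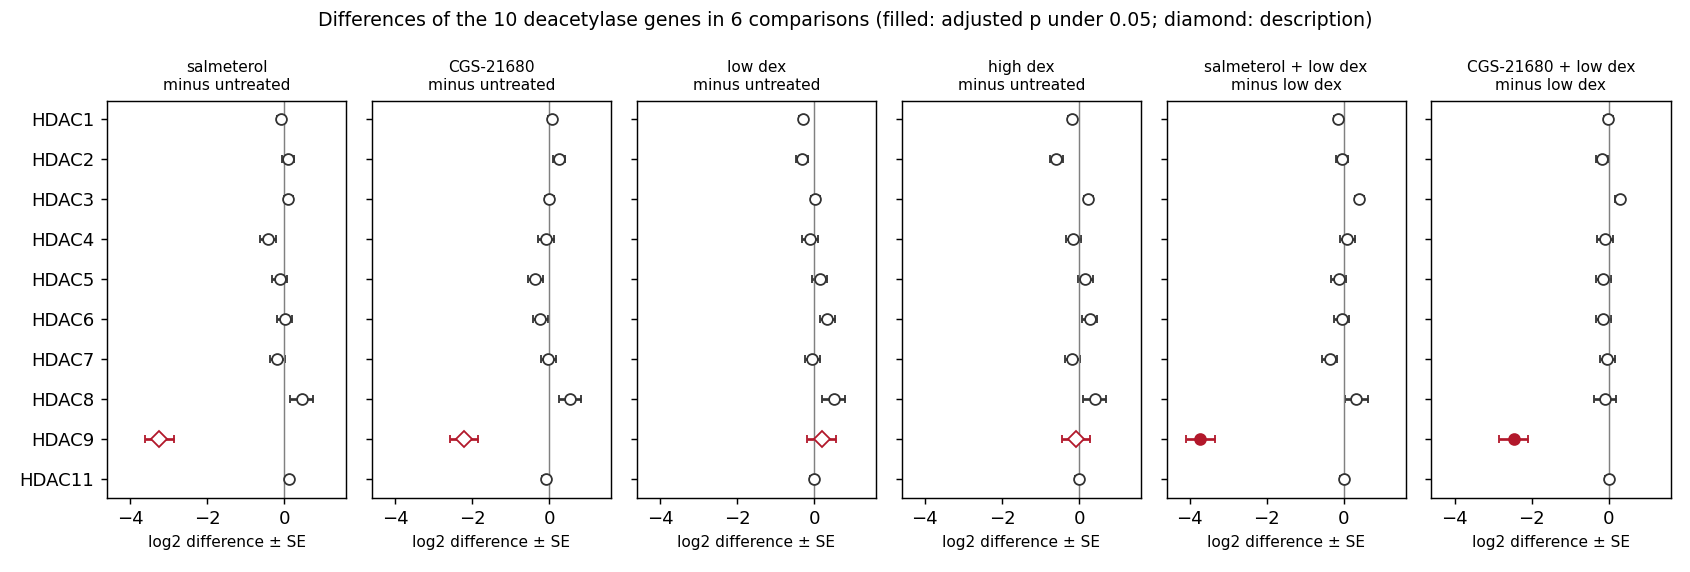
Log2 difference ± standard error of the 10 deacetylase genes in 6 comparisons (panels), from the limma fit; filled points passed an adjusted p under 0.05, open circles did not, and diamonds are HDAC9 values given without a test. HDAC9 lies between -3.72 and -2.22 in the 4 panels with an agonist and near 0 in the 2 panels with dexamethasone alone, where its values are 0.19 and -0.08.

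Among the 9 genes other than HDAC9, limma called 0 with salmeterol against untreated cells, where 5.97% of all genes tested were called, and 0 had an unadjusted p under 0.05, against 20.3% of all genes. CGS-21680 against untreated cells likewise gave 0 of 9, against 0.656% of all genes, and 0 at an unadjusted p under 0.05, against 8.43%. Low dexamethasone gave 0 of 9, against 4.66%, and 1 at an unadjusted p under 0.05, HDAC1, against 17.5%. High dexamethasone gave 0 of 9, against 8.58%, and 1 at an unadjusted p under 0.05, HDAC2, against 22.5%. Beside low dexamethasone, salmeterol gave 0 of these 9, against 14.4% of all genes. CGS-21680 gave 0 of 9 there, against 3.4%, and 1 at an unadjusted p under 0.05, HDAC3, against 15.1%. HDAC9, around which the genes were chosen, was called in both. The median difference of the 10 genes was -0.05 with salmeterol and -0.06 with CGS-21680 against untreated cells, beside -0.06 and 0.01 over all genes.

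By level, the class I genes HDAC1 and HDAC2 were lower on the arrays with low dexamethasone, and HDAC2 also on those with high dexamethasone. HDAC1 was at 10.07 and 9.99 on the untreated arrays, 9.83 and 10.04 with salmeterol, and 10.15 and 10.06 with CGS-21680. With low dexamethasone it was at 9.81 and 9.69, with salmeterol and low dexamethasone at 9.68 and 9.50, and with CGS-21680 and low dexamethasone at 9.73 and 9.76. The 6 arrays with low dexamethasone, 9.50 to 9.81, all lay below the 6 arrays without dexamethasone, 9.83 to 10.15, though the gap was narrow. HDAC2 showed the same order with a wider gap, at 9.45 to 9.81 with low dexamethasone and 10.00 to 10.43 without dexamethasone. The upper edge of 9.81 was an exact tie of 3 arrays, both with low dexamethasone alone and CGS-21680 with low dexamethasone replicate 2. The high dexamethasone arrays of HDAC2 were at 9.73 and 9.35, below every array without dexamethasone. The high dexamethasone arrays of HDAC1, at 9.80 and 9.91, overlapped the range without dexamethasone.

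In single comparisons most of these shifts missed the threshold. For HDAC1, high dexamethasone gave -0.18 against untreated cells (limma, adjusted p = 0.378). For the same gene, low dexamethasone gave -0.28 against untreated cells (limma, adjusted p = 0.2), -0.34 when added to salmeterol (adjusted p = 0.0569) and -0.37 when added to CGS-21680 (adjusted p = 0.0513). For HDAC2, it gave -0.32 against untreated cells (limma, adjusted p = 0.362) and -0.46 when added to salmeterol (adjusted p = 0.0861). When low dexamethasone was added to CGS-21680, HDAC2 fell by 0.74 ± 0.16 (limma, adjusted p = 0.0149), the only call among 10 genes in a comparison that called 13.8% of all genes. That call was lost without CGS-21680 replicate 2 (adjusted p = 0.0789) and without CGS-21680 with low dexamethasone replicate 1 (adjusted p = 0.0913), and settings ran from 0.00971 to 0.15. High dexamethasone gave -0.59 ± 0.16 for HDAC2 against untreated cells (limma, adjusted p = 0.055). Without high dexamethasone replicate 1 that value was -0.77 with an adjusted p of 0.0254, and it was also called without either array of CGS-21680 with low dexamethasone (0.045 and 0.0449). Adding low dexamethasone to salmeterol called 0 of the 9 genes other than HDAC9 in limma, against 16.3% of all genes, with 3 at an unadjusted p under 0.05, against 28.9%.

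The matched comparisons of low dexamethasone, in untreated cells, beside salmeterol and beside CGS-21680, share no array, so their mean was tested as well. This comparison was chosen after the values had been seen, so its p-values and intervals are not an independent test. HDAC1 fell by 0.33 ± 0.06 (95% interval -0.47 to -0.19; limma, adjusted p = 0.00326) and HDAC2 by 0.51 ± 0.09 (95% interval -0.72 to -0.30; limma, adjusted p = 0.00291). HDAC3 rose by 0.23 ± 0.07 (limma, adjusted p = 0.0339) and HDAC6 rose by 0.35 ± 0.11 (limma, adjusted p = 0.0443). These were 4 of the 9 genes other than HDAC9, beside 29% of all genes called in this comparison. HDAC1 and HDAC2 were called in every setting tried. HDAC3 and HDAC6 lost their calls under quantile normalization and without any filter, HDAC6 also with only the compared groups in the fit (adjusted p = 0.0572), and over all settings their adjusted p reached 0.0871 and 0.128. Leaving out 1 array at a time, HDAC6 kept its call only without low dexamethasone replicate 1 or replicate 2. HDAC3 lost its call without untreated replicate 2, either salmeterol array, CGS-21680 replicate 2, either low dexamethasone array, salmeterol with low dexamethasone replicate 1 or CGS-21680 with low dexamethasone replicate 2. HDAC1 and HDAC2 were the 2 of 10 genes whose 6 arrays with low dexamethasone lay below all 6 without dexamethasone, against 5.07% of all genes tested, and 0 of 10 lay above, against 5.83%.

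**Figure D4:**
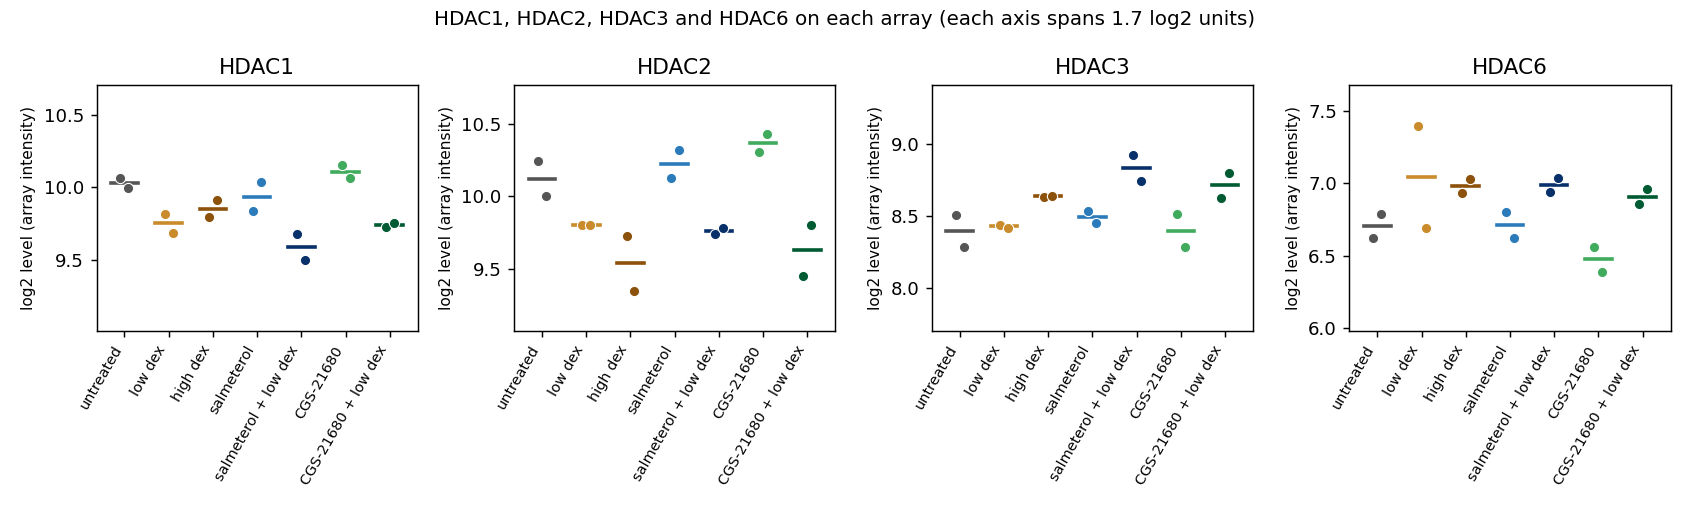
Log2 level of HDAC1, HDAC2, HDAC3 and HDAC6 on each of the 14 arrays (points, 2 per group) with the group mean (line); each axis spans 1.7 log2 units. For HDAC2, the 6 arrays with low dexamethasone lie between 9.45 and 9.81 and the 6 without dexamethasone between 10.00 and 10.43.

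HDAC3, the catalytic subunit of NCoR and SMRT complexes, was highest with salmeterol and low dexamethasone, at 8.92 and 8.74. The untreated arrays were at 8.51 and 8.29, those with salmeterol at 8.53 and 8.45, and those with low dexamethasone at 8.44 and 8.42. The combination was above untreated cells by 0.44 ± 0.12 (limma, adjusted p = 0.0254) and above low dexamethasone alone by 0.40 ± 0.12 (limma, adjusted p = 0.0526). In that comparison with untreated cells limma called 2 of the 9 genes other than HDAC9, against 24.6% of all genes. The other call was HDAC1, which fell by 0.44 ± 0.11 (limma, adjusted p = 0.0146). With only the compared groups in the fit both calls were lost (adjusted p = 0.0715 for HDAC1 and 0.117 for HDAC3). HDAC1 lost it without untreated replicate 1 (adjusted p = 0.0818) and without replicate 2 of the combination (adjusted p = 0.0962). HDAC3 lost it without untreated replicate 2 (adjusted p = 0.156) and without replicate 1 of the combination (adjusted p = 0.152). With CGS-21680 and low dexamethasone HDAC3 was at 8.62 and 8.80, a difference of 0.31 from untreated cells that was not called (limma, adjusted p = 0.115). That comparison gave 0 of 9 calls in limma, against 15.8% of all genes, with 3 at an unadjusted p under 0.05, against 28.2%.

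HDAC8, a class I enzyme that deacetylates the cohesin subunit SMC3, had its lowest group mean in untreated cells, whose arrays were at 6.25 and 6.13. With salmeterol and low dexamethasone it was at 7.15 and 6.89, a difference of 0.83 ± 0.29 (limma, adjusted p = 0.0715). Its replicates were far apart with salmeterol, at 7.05 and 6.23, and with low dexamethasone, at 6.31 and 7.07, so that these groups cannot be ordered. Those values come from the HDAC8 probe set 223908_at. The other 2 HDAC8 probe sets past the filter showed smaller differences in the same comparison, 0.0015 for 223345_at and 0.19 for 223909_s_at.

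HDAC6, the tubulin deacetylase, ran from 6.39 to 7.40. Its lowest arrays were those with CGS-21680, at 6.56 and 6.39, and its highest was low dexamethasone replicate 1, at 7.40, while replicate 2 of that group was at 6.69. Without replicate 2 the difference from untreated cells was 0.69 and called (limma, adjusted p = 0.0466), and without replicate 1 it was -0.01. The high dexamethasone arrays were at 6.93 and 7.03, 0.27 above untreated cells (limma, adjusted p = 0.468). HDAC11, at 3.78 to 4.19, lay at the filter level and had the value 4.04 on most arrays. HDAC11 was called in 0 comparisons of the main model.

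In the remaining comparisons of the main model few deacetylase genes were called, as were few of all genes in most of them. High against low dexamethasone gave 0 of 10 in limma, as well as 0% of all genes, with 0 at an unadjusted p under 0.05, against 3.53%. CGS-21680 against salmeterol gave 0 of 9 in limma, against 0.495% of all genes, with 0 at an unadjusted p under 0.05, against 12.5%. The combinations against each other gave 0 of 10 in limma, against 1.2% of all genes, with HDAC9 the 1 gene at an unadjusted p under 0.05, against 10.1%. Against high dexamethasone, HDAC9 was called in both combinations. Of the 9 other genes, 0 were called with salmeterol, against 14.6% of all genes, and 0 with CGS-21680, against 2.72%. The interactions gave 0 of 9 in limma for salmeterol, against 1.61% of all genes, and 0 of 9 for CGS-21680, against 0.151%, both with 0 at an unadjusted p under 0.05, against 11.8% and 6.35%. For CGS-21680 the interaction of HDAC2 was -0.43 ± 0.23 (limma, adjusted p = 0.898), so its call beside CGS-21680 alone was not shown to differ from its value in untreated cells.

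The genes whose pattern over the 7 group means was most like that of HDAC9 were found among 1783 tested genes whose group means spanned at least 1 in log2. This likeness is a description over 7 points, 4 of which hold an agonist. UBE2E2, a ubiquitin-conjugating enzyme, had a Pearson correlation of 0.996, with group means of 7.74 in untreated cells and 5.77 with salmeterol. PKP2, a desmosomal plaque protein, had 0.995, the phospholipid flippase ATP8B2 had 0.988, the ribosome-binding protein RRBP1 had 0.986 and the exchange factor VAV1 had 0.985. Their spans, from 1.32 to 2.23, were smaller than the 3.72 of HDAC9. At the other end, PDE4B, a phosphodiesterase that degrades cyclic AMP, had -0.997, with a mean of 6.65 in untreated cells, 10.02 with salmeterol and 9.35 with CGS-21680 and low dexamethasone. TESC, the calcium-binding protein tescalcin, had -0.995 and went from 6.79 in untreated cells to 12.10 with salmeterol. RUBCN had -0.991, HIVEP1 had -0.985 and LPXN had -0.983. In all, 111 of the 1783 genes had a correlation of at least 0.9 and 50 had one of -0.9 or less. Of the other deacetylase genes, HDAC7 had the highest correlation with HDAC9, 0.61, and HDAC8 the lowest, -0.61, both over spans of under 1.

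**Figure D5:**
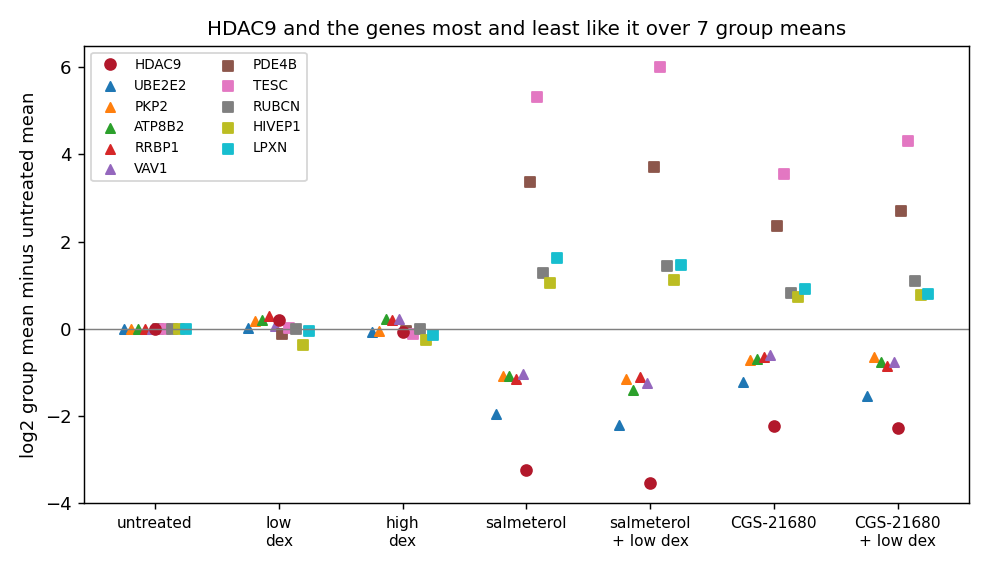
Difference of each group mean from the untreated mean, in log2, for HDAC9 (circles), the 5 genes most like it (triangles) and the 5 least like it (squares) over the 7 group means. HDAC9 reaches -3.24 with salmeterol and -2.22 with CGS-21680, and its values with dexamethasone alone are 0.19 and -0.08.

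Partners of the class IIa deacetylases were read from a list of MEF2 factors, kinases and adaptor proteins, of which 22 of 25 genes were tested. With salmeterol against untreated cells 3 of 22 fell and 0 rose, against 5.97% of all genes called. These were PRKD2, a kinase that phosphorylates class IIa deacetylases (-0.83 ± 0.16, limma, adjusted p = 0.0171), CABIN1, a corepressor that binds MEF2 and calcineurin (-0.50), and YWHAH, an adaptor that binds phosphorylated deacetylases (-0.58). The list's median was -0.23, beside -0.06 over all genes. PRKD2 has 3 probe sets past the filter, and their mean gave -0.42 (adjusted p = 0.0533). The mean of the 2 CABIN1 probe sets gave -0.30 (adjusted p = 0.075). The calls of CABIN1 and YWHAH were lost under quantile normalization (adjusted p = 0.113 and 0.0668). Beside low dexamethasone, salmeterol gave 1 fall, PRKD2 (-1.46 ± 0.16, limma, adjusted p = 0.000368), and 3 rises, the kinase SIK1 (1.34), YWHAH (0.53) and CABIN1 (0.40), the last named after its value was seen. These were 4 of 22, against 14.4% of all genes. PRKD2 was at 8.39 and 8.36 on those arrays and at 9.87 and 9.79 with low dexamethasone alone, so the groups were apart by over 1 on this probe set. The mean of the probe sets of each gene gave a smaller difference for PRKD2, -0.72 (adjusted p = 0.0022), and 0.83 for SIK1 (adjusted p = 0.00364). CGS-21680 beside low dexamethasone gave 1 call, PRKD2 (-0.71, limma, adjusted p = 0.0472), which was lost without a filter (0.13) and with the mean of probe sets (-0.44, adjusted p = 0.0658). It was 1 of 22, against 3.4% of all genes. CGS-21680 alone gave 0 of 22 in limma, against 0.656% of all genes, with 1 at an unadjusted p under 0.05, against 8.43%. Low dexamethasone gave a rise of CABIN1 (0.70) and a fall of YWHAG, another adaptor of that family (-0.75), 2 of 22 against 4.66% of all genes. High dexamethasone gave rises of CABIN1 (0.83) and SIK1 (0.95, named after its value was seen) and falls of YWHAG (-0.84) and the nuclear exporter XPO1 (-0.72), 4 of 22 against 8.58% of all genes. The mean of the 2 SIK1 probe sets gave 0.46 there and no call (adjusted p = 0.0715).

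Of the subunits of the corepressor complexes that hold HDAC1, HDAC2 or HDAC3, 32 of 40 listed genes were tested. SAP30, a Sin3 subunit, rose with salmeterol beside low dexamethasone (1.67 ± 0.18, limma, adjusted p = 0.000388), together with SAP130 (0.76), while the NuRD subunit MTA1 fell (-0.89, or -0.50 with the mean of its 2 probe sets). These 3 of 32 were a smaller share than the 14.4% of all genes called. SAP30 also rose with CGS-21680 beside low dexamethasone (0.86, limma, adjusted p = 0.0395), 1 of 32 called against 3.4% of all genes, and with high dexamethasone (1.12). High dexamethasone called 3 more, with rises of MBD2 (0.59) and ING1 (0.42, named after its value was seen) and a fall of GATAD2A (-0.63), which made 4 of 32 against 8.58% of all genes. With the mean of probe sets ING1 was not called (0.58, adjusted p = 0.086). Salmeterol alone gave 1 call of 32, against 5.97% of all genes, a fall of MTA1 (-0.87 ± 0.15, limma, adjusted p = 0.00946, or -0.46 with the mean of its probe sets). CGS-21680 alone and low dexamethasone alone gave 0 of 32 each in limma, against 0.656% and 4.66% of all genes, with 2 and 5 at an unadjusted p under 0.05, against 8.43% and 17.5%. Medians of the list lay between -0.10 and 0.10 in these 6 comparisons.

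The other deacetylases, HDAC10 and the sirtuins, had 7 of 8 genes tested, and SIRT2, a tubulin deacetylase of the sirtuin family, rose with salmeterol beside low dexamethasone (0.93 ± 0.18, limma, adjusted p = 0.00898). As 1 of 7 in a comparison that called 14.4% of all genes, this is near the background. The other 5 comparisons gave 0 of 7 in limma, where between 0.656% and 8.58% of all genes were called, with 1 gene at an unadjusted p under 0.05 in the CGS-21680 combination, against 15.1% of all genes, and 0 in the rest, against 8.43% to 22.5%. Of the acetyltransferases, which oppose the deacetylases, 13 of 14 were tested. With salmeterol beside low dexamethasone KAT5 (0.49) and the coactivator NCOA1 (0.57) rose and KAT2A fell (-1.10, limma, adjusted p = 0.0148), 3 of 13 against 14.4% of all genes. The list's median there was 0.32, beside -0.0033 over all genes, and in the CGS-21680 combination it was 0.33, beside 0.0019. The other 5 comparisons gave 0 of 13 in limma, against the same shares of all genes as above. At an unadjusted p under 0.05 there were 3 for salmeterol, against 20.3% of all genes, 1 for CGS-21680, against 8.43%, and 4 for the CGS-21680 combination, against 15.1%. Either dose of dexamethasone gave 0, against 17.5% and 22.5%.

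Of the calls named from these lists, those of PRKD2, SIK1, SAP30 and MTA1 with salmeterol beside low dexamethasone, and those of CABIN1 and YWHAG with either dose of dexamethasone, were kept whichever 1 of the 14 arrays was left out. The other calls were lost without between 1 and 12 single arrays, most often that of PRKD2 in the CGS-21680 combination (12) and that of ING1 with high dexamethasone (11). With only the arrays of the compared groups in the fit, SAP30 (limma, adjusted p = 0.0318) and PRKD2 (adjusted p = 0.022) stayed called with salmeterol beside low dexamethasone, and the other named calls of the 6 comparisons were lost.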

How the data were processed

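The authors deposited a table of intensity values, with a row for each of 54675 probe sets and a column for each array. Per the submitters' processing notes, GCRMA was used, which corrects background by probe sequence, normalizes between arrays and summarises probes. Version, settings, genome build and scan batches: not given in the sources used here. That the deposited intensity is linear and already normalized was inferred from its values, which start at a floor of 4.879, held by 37.6% to 40.1% of the probe sets of an array, and give near-equal medians, 7.44 to 7.63 in log2 over the tested genes. Low levels are compressed by that floor. Exact ties between both replicates of a group were seen in 5.2% to 6.19% of tested genes.

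Log2 of the values was taken with no pseudocount. The platform annotation gave 1 symbol to 41097 probe sets, several to 1801 and none to 11777; the last 2 kinds were left out. Of the single symbols, 41043 had their Entrez number in a more recent table of genes, and 0 symbols changed. A probe set entered at a log2 level of at least 4 on at least 2 arrays (15606 did), and the one with the highest mean stood for its gene, giving 9301 genes. One limma 3.58.1 model (R 4.3.3) took all 14 arrays as 7 group means, with 7 residual and 2.3 prior degrees of freedom. P-values were adjusted by Benjamini-Hochberg over all 9301 genes, and a gene was called at an adjusted p under 0.05. Errors beside differences are standard errors of this model. There were 17 comparisons and 1 added after the values had been seen. The script was tested on simulated data.

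The deacetylase genes, the other gene lists and the comparisons were chosen with earlier results of these data known. All deacetylase genes are named. From each other list, up to 3 called genes per comparison are named by adjusted p. A further called gene is marked as named after its value was seen. The genes most and least like HDAC9 are the 5 with the highest and the 5 with the lowest correlation. The labels call the replicates biological without saying how cultures were separated, so p-values reflect only how far these samples spread, which may be technical. The number of arrays limits precision; the smallest p of an exact permutation test with 2 arrays a group is 0.333. Replicate numbers were checked for pairing: over 21 pairs of groups the correlation of replicate differences ran from -0.173 to 0.255. It was above 0.1 in 12 pairs and below -0.1 in 2. Between low dexamethasone alone and its combinations, where HDAC9 was tested, it was 0.236 with salmeterol and 0.205 with CGS-21680. Replicates were not taken as pairs in the main model, and a replicate block was fitted as an alternative. Alternatives were quantile normalization, no filter, a filter at level 6, the mean of probe sets, log2 of value + 16, trend and robust moderation, a replicate block, only the compared groups, and leaving out each array.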

Additional observations from a re-analysis of the deposited data

Results flagged for a closer look

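Among the 74 tested genes of the other lists, 3 had a change with salmeterol that differed between cells with and without low dexamethasone, by the interaction term of the limma model, which called 1.61% of all genes. SAP30 had an interaction of 1.74 ± 0.26 in log2 (adjusted p = 0.0102): its levels were 9.13 and 9.001 in untreated cells, 9.12 and 8.87 with salmeterol, 9.55 and 9.79 with low dexamethasone, and 11.26 and 11.41 with both. YWHAH had an interaction of 1.11 ± 0.18 (adjusted p = 0.016), with levels of 10.29 and 10.40 in untreated cells, 9.78 and 9.75 with salmeterol, 10.26 and 10.28 with low dexamethasone, and 10.86 and 10.73 with both. CABIN1 had an interaction of 0.901 ± 0.142 (adjusted p = 0.0133), with levels of 8.31 and 8.18 in untreated cells, 7.70 and 7.79 with salmeterol, 8.98 and 8.91 with low dexamethasone, and 9.30 and 9.38 with both. With the mean of probe sets the interactions were smaller, 1.43 for SAP30 (limma, adjusted p = 0.00144) and 0.62 for CABIN1 (adjusted p = 0.0418). YWHAH has 1 probe set past the filter.

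Each interaction lost its call when some single arrays were left out. For SAP30 these were untreated replicate 1, low dexamethasone replicate 1 and salmeterol with low dexamethasone replicate 2, with an adjusted p of up to 0.0561. For CABIN1 they were untreated replicate 1, low dexamethasone replicate 2 and salmeterol with low dexamethasone replicate 2, with an adjusted p of up to 0.0668, and quantile normalization gave 0.806 (adjusted p = 0.0515). For YWHAH they were either untreated array, either low dexamethasone array, salmeterol replicate 2 and salmeterol with low dexamethasone replicate 1, with an adjusted p of up to 0.0723.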

How the results depend on the processing

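No call changed sign in any setting; uncalled differences near 0 did in some. Counts of called deacetylase genes below leave HDAC9 out where it was not tested. High dexamethasone went from 0 to 1 (HDAC2) under quantile normalization, the stricter filter, log2 of value + 16, and trend and robust moderation. Salmeterol beside low dexamethasone went from 1 to 2 (HDAC3 added) with the mean of probe sets, with value + 16 and with the replicate block, which changed no other count of deacetylase genes. CGS-21680 beside low dexamethasone went from 1 to 0 with only the compared groups (HDAC9 -2.47, adjusted p = 0.222). With value + 16, HDAC9 was -2.60 with salmeterol and -2.76 with the salmeterol combination against untreated cells, and in that combination -2.94 and -2.68 against low and high dexamethasone. Against untreated cells, the salmeterol combination went from 2 (HDAC1, HDAC3) to 1 with only the compared groups, a different gene, HDAC8, and to 3 (HDAC8 added) under quantile normalization and the stricter filter, and the CGS-21680 combination from 0 to 1 under quantile normalization. Adding low dexamethasone to salmeterol gave 2 under quantile normalization and 1 with value + 16 and with trend; adding it to CGS-21680 gave 2 with the mean of probe sets, value + 16 and trend, and 0 with only the compared groups. CGS-21680 with low against high dexamethasone gave 0 without a filter and with only the compared groups. The averaged comparison went from 4 to 2 under quantile normalization and without a filter. Quantile normalization moved the median of all genes by -0.106 when low dexamethasone was added to salmeterol and by -0.118 for CGS-21680 against salmeterol.

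Leaving out 1 array at a time, counts of called deacetylase genes ran from 0 to 1 for low dexamethasone, for high dexamethasone, for both CGS-21680 combination comparisons with a dexamethasone group, for that combination against untreated cells and for low dexamethasone added to salmeterol. They ran from 1 to 2 for salmeterol beside low dexamethasone and against high dexamethasone, 1 to 3 for the salmeterol combination against untreated cells, 0 to 2 for low dexamethasone added to CGS-21680 and 2 to 3 for the averaged comparison. HDAC9 in the CGS-21680 combination against low dexamethasone ran from -3.01 to -1.93.

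In the other lists, fitting only the compared groups took SIRT2's list from 1 to 0 and the acetyltransferases from 3 to 0 with salmeterol beside low dexamethasone. It took the corepressor subunits from 1 to 0 with salmeterol, 4 to 0 with high dexamethasone, 3 to 1 and 1 to 0 with salmeterol and CGS-21680 beside low dexamethasone. The class IIa partners went from 3, 2, 4, 4 and 1 to 0, 0, 0, 1 and 0, in the order salmeterol, low and high dexamethasone, salmeterol and CGS-21680 beside low dexamethasone. Without a filter the corepressor subunits gave 1 with high dexamethasone and 0 in the CGS-21680 combination, the partners 2 and 0, and the acetyltransferases 1 with salmeterol beside low dexamethasone. The mean of probe sets gave 1 and 6 corepressor subunits with low dexamethasone and with salmeterol beside it (6 also with the replicate block), and 1 and 0 partners with salmeterol and in the CGS-21680 combination, as did quantile normalization. The acetyltransferases gave 1 in the CGS-21680 combination with value + 16 and with the block. Without single arrays these lists ran from 0 to 2 (SIRT2's list), 0 to 1, 0 to 6, 3 to 4 and 0 to 1 (corepressor subunits, in the order given), 0 to 5, 2 to 3, 2 to 5, 2 to 4 and 0 to 1 (partners), and 0 to 4 and 0 to 1 (acetyltransferases). The cause of these changes was not tested, beyond that fitting fewer arrays leaves fewer degrees of freedom. Values near the floor limit what can be seen of HDAC4, HDAC11 and, on the salmeterol arrays, HDAC9.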
